A study of Mus musculus with 72 samples.

Results

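The p53 family and its feedback regulators were followed here as 8 genes, Trp53, Trp63 and Trp73, which encode the family's transcription factors, and Mdm2, Mdm4, Ppm1d, Trp53inp1 and Rchy1, which encode proteins that act back on p53. The members were listed by name, and their probes were those on the mRNA arrays whose transcript accession mapped to one of these symbols. All 8 were found, with 17 probes among the 56605 probes of the array, of which 34566 could be named and stood for 23787 genes. RNA came from 18 liver and 18 lung samples of female C57BL/6 J mice aged 6 to 8 weeks, with 3 mice per organ at each of 6 doses from 0 through 1, 2, 4 and 8 to 12 Gy. X-rays were given to the whole body once at 1.05 Gy/min, controls were sham irradiated, and organs were taken 48 h later. The animals were of a single inbred strain and a single sex, and the labels name no engineered allele. Each sample was run on 1 of 36 one-colour Agilent arrays. Liver and lung samples carry the same mouse numbers, but the labels do not say that a number is the same animal in both organs.

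p53 is a transcription factor that cells hold at a low protein level under normal conditions and stabilize after DNA damage. Mdm2 encodes the ubiquitin ligase that marks p53 for degradation and is itself a p53 target gene, which closes a negative feedback loop, and Mdm4 encodes a related protein that binds p53 and restrains its activity. Ppm1d encodes the phosphatase Wip1, which removes damage-induced phosphates from p53 and from the kinases above it, Rchy1 encodes the ubiquitin ligase Pirh2, and Trp53inp1 encodes a p53-induced protein that promotes p53 function. Much of the control of p53 after damage acts on the protein, which arrays of RNA do not measure.

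p53 binds DNA as a tetramer through pairs of half-sites, and the promoters of the family were searched for single half-sites. RefSeq promoter windows of GRCm38.p6, running from 250 bases before to 50 bases after a transcript start, were held for 6 of the 8 members in 9 windows, and none was held for Trp63 and Trp53inp1. The consensus of the p53 half-site is 10 bases long and reads the same on both strands. An exact match to it lay in 4 of these 9 windows, 1 each for Mdm2, Trp53, Ppm1d and Rchy1. Each of these 4 windows held 1 such match, so none held an exact pair. Among all 32851 windows of the table, 2745 held such a match, or 8.36%. No match lay in the windows of Mdm4 and Trp73. The stretches around the match are printed for Mdm2 and Ppm1d, which encode feedback inhibitors that rose with dose, and for Trp53 itself, each on the strand of the gene with the half-site in capitals.
Mdm2 (chr10:117710885-117710994, minus strand, half-site starting 186 bases before the transcript start): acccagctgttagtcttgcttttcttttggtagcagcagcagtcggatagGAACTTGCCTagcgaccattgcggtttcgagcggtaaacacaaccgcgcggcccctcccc
Ppm1d (chr11:85311072-85311181, plus strand, half-site starting 132 bases before the transcript start): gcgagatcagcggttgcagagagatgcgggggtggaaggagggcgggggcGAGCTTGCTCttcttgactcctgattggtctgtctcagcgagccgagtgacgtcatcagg
Trp53 (chr11:69580234-69580343, plus strand, half-site starting 75 bases before the transcript start): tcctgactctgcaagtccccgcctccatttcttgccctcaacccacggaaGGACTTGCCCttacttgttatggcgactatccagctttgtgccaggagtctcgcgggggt
The match of Rchy1 was GAGCTTGTCT, 90 bases before its start. A match of letters is a description of the sequence, and binding was not measured.

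Levels are log2 values of background-corrected spot intensity after quantile normalization within an organ, so they rank the mice for a probe but do not compare one probe with another. Between 46.1% and 54% of spots on a liver array and between 54.1% and 64% on a lung array were well above background, and no spot was saturated. Marker means, here and below, are instead from all 36 arrays normalized together. The 12 hepatocyte markers averaged between 17.5 and 17.7 in the liver. The 8 alveolar type 2 markers averaged between 15.7 and 16.1 in the lung against 6.97 to 8.12 in the liver, so the arrays fit their organ labels. One lung array at 4 Gy (mouse 24) carried a hepatocyte marker mean of 12.2, against 6.50 to 9.89 on the other lung arrays, and one control lung array (mouse 21) carried a T cell marker mean of 11.3, against 8.99 and 9.45 in the other controls. Arrays were hybridized on 5 slides of up to 8 arrays, largely filled in the order of dose, and the last slide, which held all 12 Gy lung arrays and 1 at 8 Gy, had 54.1% to 54.8% of its spots well above background against 59.2% to 64% on the first 2 lung slides. In the lung only the 1 Gy arrays shared a slide with the controls, so slide and dose cannot be told apart at 2 Gy and above. In the liver the 1 Gy arrays and 2 of the 2 Gy arrays shared the slide of the controls, and no array at 4 Gy or above did. Mouse 23 at 2 Gy was the only link to the next slide, so slide and liver dose cannot be fully told apart from 4 Gy upward. Values that change with the slide in the model are given beside the results.

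A probe passed the test at a Benjamini-Hochberg adjusted p below 0.05 from limma over all probes tested in that organ, and each gene is described by its brightest probe. All doses in an organ were set against the same 3 control mice, so the comparisons are not independent of each other. In the liver, 0 of the 8 members passed at 1 Gy, where 0.0417% of all probes tested passed, and 0 passed at 2 Gy, where 0.461% passed. At 4 Gy Mdm2, Trp53inp1 and Trp73 passed, all higher, against 3.31% of all probes. At 8 Gy 6 members were higher, these 3 with Ppm1d, Rchy1 and Trp63, against 9.9% of all probes. At 12 Gy 4 members were higher, Mdm2, Trp53inp1, Ppm1d and Rchy1, against 7.01% of all probes, and Mdm2 and Trp53inp1 were also more than 2-fold higher, which 2.06% of probes were in either direction. No member fell in the liver at any dose.

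In the lung the family moved in both directions. None of the 8 members passed at 1 Gy, against 0.025% of all probes, and Mdm2 alone passed at 2 Gy, against 0.555%. At 4 Gy Mdm2 and Trp53inp1 were higher and Trp53 lower, against 2.18% of all probes, and the same 3 genes passed in the same directions at 8 Gy, against 4.25%. At 12 Gy Mdm2, Trp53inp1, Mdm4 and Ppm1d were higher while Trp53 and Trp63 were lower, against 21.4% of all probes, and Mdm2, Trp53inp1 and Trp53 changed more than 2-fold, as 7.29% of all probes did. The linear dose trend, given as the log2 change over 12 Gy, passed for 4 members in the liver, all rising, against 9.51% of all probes. It passed for 6 members in the lung, 4 rising and 2 falling, against 30.7% of all probes.

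**Figure D1:**
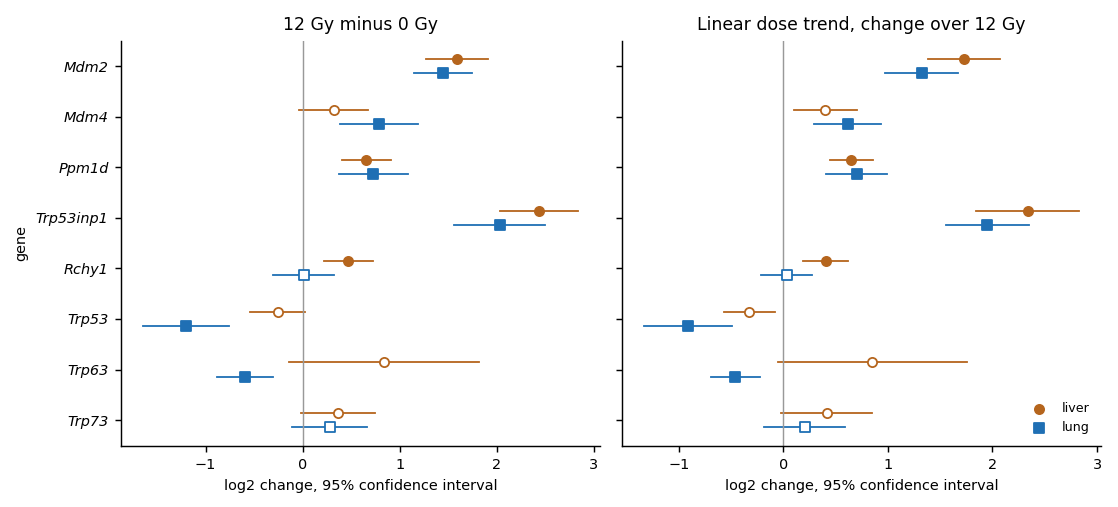
Log2 change (horizontal axes) of the 8 genes by their brightest probe in liver (circles) and lung (squares), with the 12 Gy minus 0 Gy difference on the left and the linear trend over 12 Gy on the right. Bars are 95% confidence intervals and filled symbols passed the test: Mdm2 and Trp53inp1 lie to the right in both organs, at 1.60 and 2.44 in the liver and 1.45 and 2.03 in the lung at 12 Gy, while Trp53 lies at -1.20 in the lung.

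Mdm2 (GRCm38.p6, chr10:117688875-117710758), the p53 ubiquitin ligase, rose with dose in both organs. Its liver levels were 10.77, 10.85 and 10.75 at 0 Gy, 10.88, 10.87 and 11.05 at 1 Gy, and 11.14, 10.99 and 11.42 at 2 Gy. They went on to 11.89, 11.74 and 11.42 at 4 Gy, 12.08, 12.44 and 12.50 at 8 Gy, and 12.50, 12.28 and 12.38 at 12 Gy. Every irradiated liver lay above every control, and the 8 and 12 Gy livers overlapped. The difference from 0 Gy was 0.89 (SE 0.15, adjusted p = 0.00567) at 4 Gy, 1.55 (adjusted p = 3.9e-05) at 8 Gy and 1.60 (SE 0.15, adjusted p = 1.98e-05) at 12 Gy, or 3.02-fold. In the lung Mdm2 stood at 12.39, 12.17 and 12.46 at 0 Gy, 12.61, 12.43 and 12.56 at 1 Gy, and 13.23, 12.89 and 13.17 at 2 Gy. It then stood at 13.22, 13.37 and 13.23 at 4 Gy, 13.53, 13.45 and 13.48 at 8 Gy, and 13.98, 13.62 and 13.76 at 12 Gy. Lung mice from 2 Gy upward did not overlap the controls, and the 3 mice at 12 Gy were above all others. The lung difference was already 0.76 (SE 0.14, adjusted p = 0.0185) at 2 Gy. That call was lost when control mouse 11 or mouse 3 or 23 at 2 Gy was left out, with adjusted p up to 0.132. At 12 Gy the lung difference reached 1.45 (SE 0.14, adjusted p = 7.91e-06), or 2.73-fold. The dimmer Mdm2 probe gave 1.45 in the liver and 1.56 in the lung at 12 Gy, and both passed. With the slide as a fixed term the liver difference at 12 Gy was 1.36 (adjusted p = 0.0516) and the lung trend fell from 1.32 to 0.85 (adjusted p = 0.279).

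Trp53inp1 (chr4:11156441-11174379) rose in both organs, and its brightest probe had the largest 12 Gy difference among the brightest probes of the 8 members in each. Liver levels were 10.37, 10.63 and 10.60 at 0 Gy, 11.35, 10.70 and 11.02 at 1 Gy, and 11.43, 11.46 and 11.34 at 2 Gy. Above that dose they were 11.97, 12.18 and 12.41 at 4 Gy, 12.33, 12.68 and 12.89 at 8 Gy, and 13.00, 12.70 and 13.22 at 12 Gy. The controls were below every irradiated liver, and neighbouring doses overlapped only between 1 Gy and 2 Gy, 4 Gy and 8 Gy, and 8 Gy and 12 Gy. At 12 Gy the liver difference was 2.44 (SE 0.19, adjusted p = 3.15e-06), a 5.43-fold rise, after 1.65 at 4 Gy (adjusted p = 0.00034) and 2.10 at 8 Gy (adjusted p = 1.91e-05). Lung levels were 12.50, 12.22 and 12.26 at 0 Gy, 12.68, 12.58 and 12.59 at 1 Gy, and 12.70, 12.82 and 12.95 at 2 Gy. From 4 Gy they were 13.79, 13.20 and 13.25 at 4 Gy, 13.92, 13.95 and 13.27 at 8 Gy, and 14.34 and 14.37 at 12 Gy. The spot of mouse 16 at 12 Gy was an outlier and is missing, and both remaining mice at that dose were above all other lungs. The lung difference was 1.09 (adjusted p = 0.00727) at 4 Gy, 1.39 (adjusted p = 0.000563) at 8 Gy and 2.03 (SE 0.22, n = 2 against 3, adjusted p = 3.76e-05) at 12 Gy, or 4.09-fold. The second probe, which lies lower in brightness, rose by 1.30 in the liver and 1.31 in the lung at 12 Gy, and both passed. With the slide as a fixed term Trp53inp1 was the only member to pass at 12 Gy in the liver, at 2.57 (adjusted p = 0.0129), and in the lung trend, at 2.43 (adjusted p = 0.00457). Its liver trend went from 2.34 to 1.92 and missed the threshold (adjusted p = 0.0557), while 1 of the other members passed the liver trend in that fit.

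**Figure D2:**
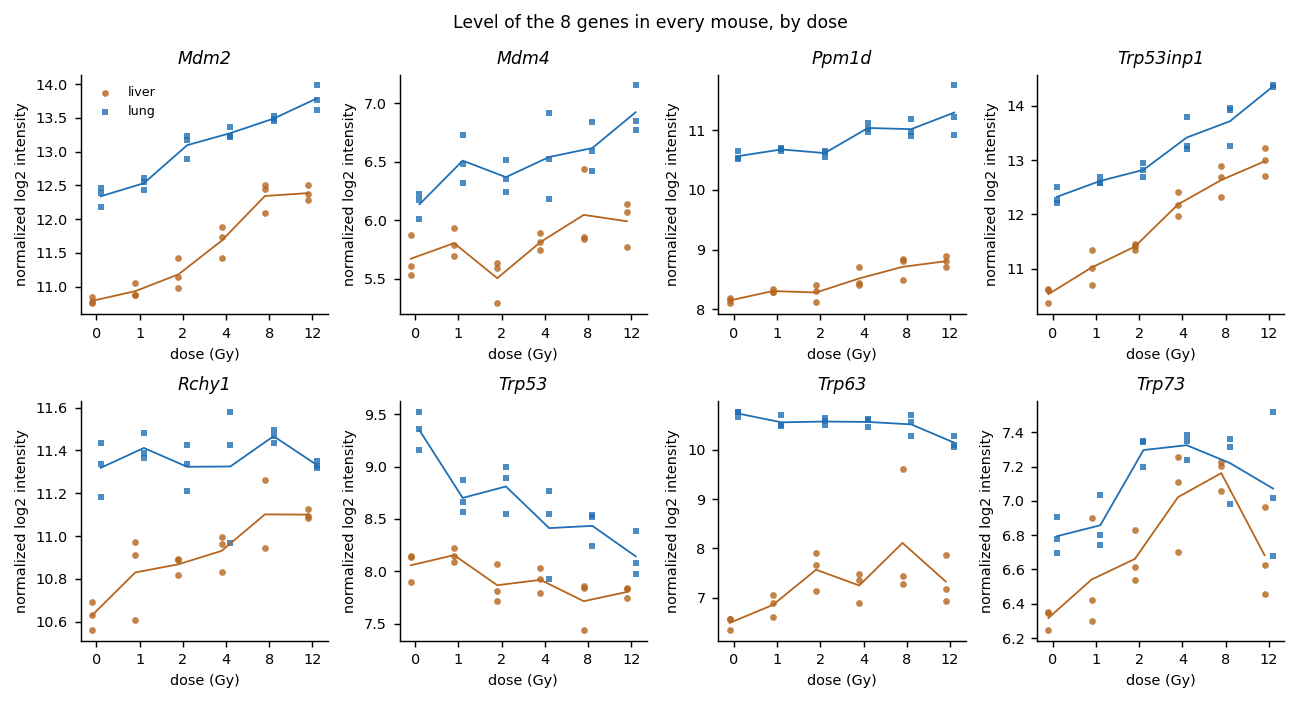
Normalized log2 level of the brightest probe of each of the 8 genes (vertical axis) in every mouse at the 6 doses (horizontal axis, doses evenly spaced), with circles for liver, squares for lung and a line through the mean of each dose. The organs were normalized separately, so heights are not comparable between them: over dose Mdm2 and Trp53inp1 rise in both, and Trp53 falls in the lung, from 9.16 to 9.53 in controls to 7.97 to 8.38 at 12 Gy.

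Ppm1d (chr11:85311254-85347071), the Wip1 phosphatase, rose less than 2-fold in both organs by its brighter probe. In the liver its levels ran from 8.10, 8.16 and 8.18 at 0 Gy through 8.29, 8.34 and 8.29 at 1 Gy, 8.12, 8.31 and 8.41 at 2 Gy and 8.44, 8.40 and 8.71 at 4 Gy to 8.49, 8.84 and 8.80 at 8 Gy. The livers at 12 Gy were at 8.89, 8.81 and 8.71. Only at 2 Gy did the irradiated livers overlap the controls. The liver difference was 0.56 (adjusted p = 0.00985) at 8 Gy and 0.66 (SE 0.12, adjusted p = 0.00409) at 12 Gy, a 1.58-fold rise. Lung levels were 10.52, 10.54 and 10.65 at 0 Gy, 10.65, 10.68 and 10.70 at 1 Gy, and 10.55, 10.64 and 10.66 at 2 Gy. The higher doses gave 10.97, 11.13 and 11.01 at 4 Gy, 10.90, 11.19 and 10.97 at 8 Gy, and 10.92, 11.75 and 11.22 at 12 Gy. From 4 Gy upward the lungs lay above the controls, with mouse 16 at 12 Gy the highest. The lung difference at 12 Gy was 0.73 (SE 0.17, adjusted p = 0.00775), and 0.50 (adjusted p = 0.0255) without mouse 16. The second Ppm1d probe rose by 1.13 in the lung at 12 Gy (SE 0.18, adjusted p = 0.000762) while its liver difference, 0.50, missed the threshold (adjusted p = 0.0602). With the slide in the model as a random block the lung difference of the brighter probe was 0.74 with an adjusted p of 0.0847, and as a fixed term the liver difference was 0.56 with an adjusted p of 0.357.

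Mdm4 (chr1:132986105-133030587), the p53-binding relative of Mdm2, was a dim probe in both organs. Its liver levels were 5.53, 5.87 and 5.61 at 0 Gy and 6.07, 5.77 and 6.13 at 12 Gy, with the doses between them spanning 5.29 to 6.44, and the groups overlapped throughout. That gave a liver difference of 0.32 (SE 0.17, adjusted p = 0.303). In the lung the controls were at 6.01, 6.22 and 6.17, the 4 doses between spanned 6.18 to 6.92, and the 12 Gy mice were at 6.85, 7.15 and 6.77, above all controls. That difference, 0.79 (SE 0.19, adjusted p = 0.00945) or 1.73-fold, was the only dose comparison of this probe to pass. Of the 3 other Mdm4 probes, 1 was not well above background on any array and the other 2 did not pass at 12 Gy in either organ, with lung differences of 0.69 and 0.30. The first of these, A_55_P2617568, passed at 12 Gy in the lung without the 1 Gy mouse 12 (adjusted p = 0.0193), whose lung value of 3.35 lay far below the others, and its lung trend was then 0.71 (adjusted p = 0.00134) against 1.09 (adjusted p = 0.0709) with all lungs. The second, A_55_P2617573, passed in the lung trend, at 0.40 (SE 0.15, adjusted p = 0.0463), a call that was lost in 11 of the 18 fits that left out 1 mouse. Without the last slide the lung trend of Mdm4 was 0.43 (adjusted p = 0.463) against 0.61 (adjusted p = 0.00582) with all lung arrays.

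Rchy1 (chr5:91948842-91963145), the Pirh2 ligase, rose slightly in the liver and not detectably in the lung. Liver levels were 10.63, 10.69 and 10.56 at 0 Gy, 10.91, 10.61 and 10.97 at 1 Gy, and 10.82, 10.89 and 10.90 at 2 Gy. The next doses gave 10.99, 10.83 and 10.96 at 4 Gy, 11.26 and 10.94 at 8 Gy, and 11.09, 11.08 and 11.13 at 12 Gy. The spot of mouse 15 at 8 Gy was an outlier and is missing. From 2 Gy upward all livers were above all controls. At 8 Gy the difference was 0.47 (SE 0.13, n = 2 against 3, adjusted p = 0.0366). That call was lost in 6 of the 18 fits that left out 1 mouse, with values from 0.31 to 0.63 over the 18 and adjusted p up to 0.254. The difference at 12 Gy was 0.47 (SE 0.12, adjusted p = 0.026), or 1.39-fold. It missed the threshold when any one of the 0 or 12 Gy mice was left out, with adjusted p between 0.0583 and 0.0891. In the lung the levels were 11.18, 11.44 and 11.34 at 0 Gy and 11.32, 11.33 and 11.35 at 12 Gy, with 10.97 to 11.58 between, so that control and 12 Gy lungs overlapped. The lung difference at 12 Gy was 0.01, with a 95% interval from -0.30 to 0.33 (adjusted p = 0.961). The lung minus liver difference of the 12 Gy effects was -0.41 (adjusted p = 0.167), so the organs were not shown to differ for Rchy1.

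Trp53 itself (chr11:69580348-69591873) fell in the lung by the only probe named for it, so no other probe could be set beside it. Its lung levels were 9.16, 9.36 and 9.53 at 0 Gy, 8.57, 8.66 and 8.88 at 1 Gy, and 8.89, 8.55 and 9.0 at 2 Gy. Above 2 Gy they were 8.77, 7.92 and 8.55 at 4 Gy, 8.52, 8.24 and 8.54 at 8 Gy, and 8.08, 8.38 and 7.97 at 12 Gy. All 15 irradiated lungs were below all 3 controls. At 1 Gy, where the mice shared a slide with the controls, the difference was -0.65 (SE 0.21, adjusted p = 0.579). The difference from 0 Gy passed at 4 Gy (-0.94, adjusted p = 0.026), at 8 Gy (-0.91, adjusted p = 0.0178) and at 12 Gy (-1.20, SE 0.21, adjusted p = 0.00126), the last a 2.30-fold fall. Without mouse 21, the control with the high T cell markers, the differences at 4, 8 and 12 Gy were -0.85, -0.83 and -1.12, with adjusted p of 0.12, 0.0879 and 0.00794. Without mouse 24, which carried the hepatocyte markers, the 4 Gy difference was -1.0 (adjusted p = 0.0588). Leaving out control mouse 11, mouse 14 at 4 Gy or mouse 15 at 8 Gy also lost a call at 4 or 8 Gy, with adjusted p up to 0.121.

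The fall of Trp53 in the lung went with a fall of lymphocyte genes, and genes of other lists fell as well. At 12 Gy 13 of 15 proliferation genes were lower in the lung, with a median of -1.42, where 21.4% of all probes passed. By the linear dose trend 5 of these 15 were lower in the lung, where 30.7% of all probes passed. Of 5 tested erythroid genes 3 were lower and 1 higher in the lung at 12 Gy, and 2 were lower and 1 higher by the trend. In the liver at 12 Gy 12 of 15 proliferation genes were lower, with a median of -1.49, where 7.01% of all probes passed. By the trend 4 of these 15 were lower in the liver, where 9.51% of all probes passed. All 9 B cell markers fell with dose in the lung, with a median trend of -3.31 against 0.08 over all probes tested, of which 30.7% passed. Their mean level went from 8.55 to 9.52 in the controls to 5.41 to 5.62 at 12 Gy, where 2 or 3 of the 9 were still well above background. Of 11 T cell markers 10 fell, with a median trend of -3.39. Their mean went from between 8.99 and 11.3 to between 6.29 and 6.73, with 7 or 8 well above background at 12 Gy. In RNA from whole organs, fewer cells of a type and less RNA per cell cannot be told apart, and the part of these cells in the Trp53 signal was not tested. Liver lymphocyte markers fell by less, where 9.51% of all probes passed the trend. There 5 of 8 tested B cell genes fell with a median trend of -0.81, and 5 of 10 tested T cell genes with a median of -0.73. The B cell mean was 6.72 to 7.11 in liver controls and 5.33 to 5.53 at 12 Gy, with 4 of 9 well above background. The T cell mean was 7.65 to 7.84 and 6.67 to 6.94. Both lists began lower in the liver than in the lung, and the bearing of this on the smaller fall was not tested.

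Trp53 in the liver was at 8.13, 7.89 and 8.15 at 0 Gy, 8.22, 8.15 and 8.09 at 1 Gy, and 7.81, 7.71 and 8.07 at 2 Gy. The remaining livers were at 7.79, 7.93 and 8.03 at 4 Gy, 7.84, 7.44 and 7.86 at 8 Gy, and 7.83, 7.74 and 7.84 at 12 Gy. The 8 and 12 Gy livers were below all controls by small margins, and no dose passed, with -0.34 (adjusted p = 0.118) at 8 Gy and -0.25 (SE 0.13, adjusted p = 0.305) at 12 Gy. With all arrays normalized together, the effect of 12 Gy was lower in the lung than in the liver by 1.01 on the log2 scale (SE 0.25, 95% interval of the lung minus liver difference -1.52 to -0.50, adjusted p = 0.0104). That call was lost without mouse number 11 or 26 in both organs, with adjusted p of 0.0579 and 0.0506. The difference of the linear trends, -0.64, missed the threshold (adjusted p = 0.0647).

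**Figure D3:**
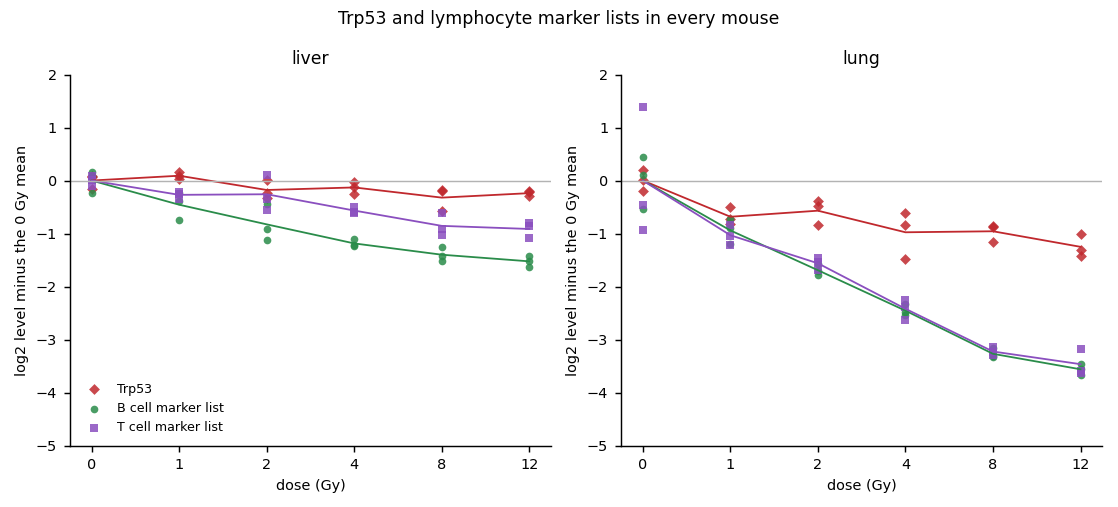
Trp53 level and mean level of the B cell and T cell marker lists in every mouse, each as the log2 difference from its own 0 Gy mean (vertical axis), at the 6 doses (horizontal axis, evenly spaced) in liver and lung, with lines through the dose means and all 36 arrays normalized together. In the lung both marker lists and Trp53 lie lower at 12 Gy than in any control, the lists by more, and in the liver all 3 move less.

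Within slides the lung differences of Trp53 were -0.65 for 1 against 0 Gy, -0.40 for 4 against 2 Gy and -0.43 for 8 against 2 Gy. They were -0.03 for 8 against 4 Gy, at 8.38 and 8.41, and -0.40 for 12 Gy against the single 8 Gy mouse on the last slide. The trend was -1.07 (adjusted p = 0.666) with the slide as a fixed term against -0.91 (adjusted p = 0.00251) without it. The 12 Gy difference with the slide as a random block was -1.23 (adjusted p = 0.0245). Mdm2 and Trp53inp1 also passed that fit in the lung, at 1.45 and 2.13, while Trp63, Mdm4 and Ppm1d did not.

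Trp63 (chr16:25683763-25892088), best known for the basal cells of stratified and airway epithelium, fell slightly at the highest lung dose by its brightest probe. Lung levels were 10.78, 10.77 and 10.67 at 0 Gy, 10.48, 10.50 and 10.70 at 1 Gy, and 10.51, 10.58 and 10.64 at 2 Gy. Beyond this they were 10.63, 10.46 and 10.61 at 4 Gy, 10.71, 10.57 and 10.28 at 8 Gy, and 10.06, 10.29 and 10.09 at 12 Gy. Except for the lowest mouse at 8 Gy, which was on the same slide, the 12 Gy lungs stood below all others. The difference was -0.59 (SE 0.14, adjusted p = 0.00731), and with the slide as a random block it was -0.54 (adjusted p = 0.105). The lung trend was -0.46 with all arrays (adjusted p = 0.00531), -0.07 without the last slide (adjusted p = 0.877) and -0.04 with the slide as a fixed term (adjusted p = 0.999). The second Trp63 probe did not pass and pointed the other way in the lung, by 0.72 at 12 Gy (SE 0.52, adjusted p = 0.355), and averaging both probes turned the difference to 0.06. The 8 basal cell markers in the lung, without Trp63, had means of 8.24 to 9.55 in the controls and 7.86 to 9.81 at 12 Gy. Of these markers 2 fell with dose, where 30.7% of all probes passed the trend.

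Liver Trp63 levels by the brightest probe were 6.56, 6.56 and 6.35 at 0 Gy, 7.06, 6.90 and 6.60 at 1 Gy, and 7.92, 7.66 and 7.13 at 2 Gy. Further doses gave 7.36, 6.90 and 7.48 at 4 Gy, 7.45, 7.28 and 9.61 at 8 Gy, and 7.88, 7.17 and 6.94 at 12 Gy. Every irradiated liver was above every control, and mouse 25 at 8 Gy stood far above the rest. The difference passed at 8 Gy (1.62, SE 0.46, adjusted p = 0.0384) and at no other dose, and without mouse 25 it was 0.87 (adjusted p = 0.0638). It also missed the threshold when any one of the controls or mouse 4 at 4 Gy was left out, with adjusted p up to 0.104. The second probe was well above background on 1 of 18 liver arrays, and of the 8 basal cell markers 1 to 4 were well above background on a liver array.

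Trp73 (chr4:154056249-154139875), which multiciliated cells and parts of the nervous system need, rose in the liver at the middle doses by its brightest probe. Liver levels were 6.35, 6.35 and 6.25 at 0 Gy, 6.42, 6.30 and 6.90 at 1 Gy, and 6.54, 6.61 and 6.83 at 2 Gy. At the top 3 doses they were 7.11, 6.70 and 7.25 at 4 Gy, 7.06, 7.20 and 7.23 at 8 Gy, and 6.96, 6.46 and 6.63 at 12 Gy. From 2 Gy upward the livers were above all controls, and 12 Gy lay below most 4 and 8 Gy mice. The difference was 0.71 (adjusted p = 0.0445) at 4 Gy, 0.84 (SE 0.18, adjusted p = 0.00928) at 8 Gy and 0.37 (adjusted p = 0.265) at 12 Gy. The 4 Gy call was lost in 12 of the 18 fits that left out 1 mouse. The 2 other Trp73 probes were well above background on 0 and 2 of the 18 liver arrays, so the liver pattern rests on 1 probe, and averaging the probes gave 0.08 at 8 Gy (adjusted p = 0.818).

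The Trp73 probe that was brightest over the 36 arrays was not the brightest one in the lung. There it was at 6.78, 6.91 and 6.70 at 0 Gy and 7.03, 6.80 and 6.74 at 1 Gy. At 2 Gy it was at 7.20, 7.34 and 7.35. It was at 7.35, 7.24 and 7.39 at 4 Gy, 7.36, 7.31 and 6.98 at 8 Gy, and 6.68, 7.52 and 7.01 at 12 Gy. Doses from 2 to 8 Gy did not overlap the controls and 12 Gy did, and no dose passed, the largest difference being 0.53 at 4 Gy (adjusted p = 0.183). Another probe, A_52_P193555, was brighter in the lung and was well above background on all 18 lung arrays. This probe was at 8.76, 8.25 and 8.06 in the controls and 9.10, 9.71 and 9.29 at 12 Gy, which did not overlap. It rose by 1.01 at 12 Gy (SE 0.20, adjusted p = 0.00345), with a trend of 0.88 (adjusted p = 0.000945) that was 0.62 without the last slide (adjusted p = 0.276) and -0.04 with the slide as a fixed term. Beside it, 5 of the 10 multiciliated markers rose with dose in the lung and 1 fell, where 30.7% of all probes passed. Their mean was 10.90, 10.83 and 10.30 in the controls and 10.94, 11.15 and 10.86 at 12 Gy, and these groups overlapped. The part of these cells in the Trp73 signal was not tested.

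**Figure D4:**
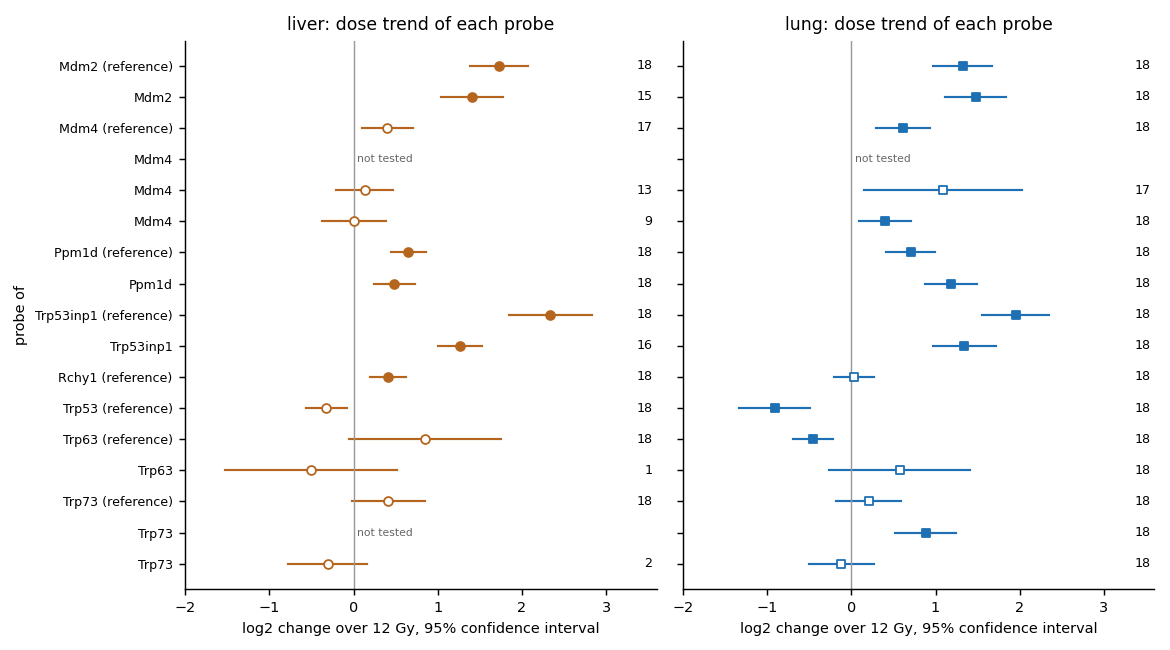
Linear dose trend as the log2 change over 12 Gy with its 95% confidence interval (horizontal axis) for every probe of the 8 genes (reference marks the brightest), in liver and lung, where open symbols did not pass and the numbers at the right give the arrays of 18 on which the probe was well above background. Both probes of Mdm2 and of Trp53inp1 rise in both organs, while the lung trends of the Trp63 probes are -0.46 and 0.57 and those of the Trp73 probes span -0.12 to 0.88.

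Steps between neighbouring doses do not use the control mice. None of the 32 steps of the 8 members passed in the liver, where the lowest adjusted p was 0.214 and 6 steps had an unadjusted limma p below 0.05, and none of 32 passed in the lung, where the lowest adjusted p was 0.146 and 7 were below 0.05 unadjusted. Over all probes, 0%, 0%, 0.00521% and 0% passed in the liver for 2 against 1, 4 against 2, 8 against 4 and 12 against 8 Gy, and 0.00227%, 0%, 0.0091% and 0.234% in the lung. The steps of Mdm2 with the smallest unadjusted p were 8 against 4 Gy in the liver, at 0.66 (SE 0.15, adjusted p = 0.214), and 2 against 1 Gy in the lung, at 0.56 (SE 0.14, adjusted p = 0.522). For Trp53inp1 they were 4 against 2 Gy in the liver, at 0.78 (SE 0.19, adjusted p = 0.258), and 4 against 2 Gy in the lung, at 0.59 (SE 0.20, adjusted p = 0.867). Without mouse 25 at 8 Gy, 1 lung step passed.

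Whether the organs responded differently was tested with all arrays normalized together. The difference of the 12 Gy effects passed for Trp53 and Trp63, 2 of the 8 members, against 10.1% of all probes, and the difference of the trends passed for Trp63 alone, at -1.32 (SE 0.44, adjusted p = 0.0324), against 16.5%. The trend difference of Trp63 missed the threshold in 5 of the 18 fits that left out 1 mouse number, with adjusted p up to 0.104. For Trp63 the 12 Gy effects differed by -1.47 (SE 0.47, adjusted p = 0.0426), a call that was lost in 13 of the 18 fits, with adjusted p up to 0.174. Averaging both probes brought this to -0.27 (adjusted p = 0.826). The trend of Mdm2 differed by 0.01 between the organs, with a 95% interval from -0.49 to 0.50, and that of Trp53inp1 by 0.19, with an interval from -0.45 to 0.82. A test that was not passed does not show that the organs respond alike.

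Before any dose, 6 of the 8 brightest probes differed between lung and liver, where 52.8% of all probes did. The control livers were all on slide 1 and the control lungs all on slide 3, so slide and organ cannot be told apart here. Trp63 was higher in the lung by 2.97 (SE 0.33, adjusted p = 8.25e-09), the largest gap among these probes, and Ppm1d by 1.18 (SE 0.15, adjusted p = 1.03e-07). Both kept their direction and passed when the values were scaled to the 75th percentile, which moved the median gap over all probes from -0.05 to -0.28, and in the deposited series values. Trp53inp1 and Mdm2 were higher in the lung by 0.91 and 0.69, gaps that shrank to 0.37 (adjusted p = 0.0438) and 0.16 (adjusted p = 0.239) under that scaling. Mdm4 and Trp73 were lower in the lung, with gaps of -0.69 and -0.87, and that of Trp73 turned to 1.00 when its 3 probes were averaged. Trp53 at -0.06 and Rchy1 at -0.29 did not pass. Probes of one gene disagreed here, since the second probes of Ppm1d and Mdm2 gave 0.02 and -0.01 and that of Trp53inp1 -0.66, and the Trp73 probe A_52_P193555 was well above background on all 18 lung arrays and on 0 of 18 liver arrays.

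Most p53 target genes outside the family rose in both organs. Of 26 such genes, 15 rose and 0 fell with dose in the liver, with a median trend of 1.12 against 0.00 over all probes tested, of which 9.51% passed. In the lung, where 30.7% of all probes passed, 21 rose and 0 fell, with a median of 1.12 against 0.08. In the liver the largest trends were those of Cdkn1a, the p21 inhibitor of cyclin-dependent kinases, at 5.13 (SE 0.60), Phlda3, an inhibitor of Akt signalling, at 3.42 and Eda2r, a receptor of the tumour necrosis factor family, at 2.96. In the lung they were those of Gdf15, a stress-induced secreted factor, at 3.96 (SE 0.44), Eda2r at 3.51 and Cdkn1a at 2.88. With the slide as a fixed term 5 of the liver trends and 1 of the lung trends passed, and 17 of the lung trends passed without the last slide.

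Of 8 kinases above p53, 1 passed in the dose trend in the liver, where 9.51% of all probes passed, and 2 passed in the lung, where 30.7% did. In the liver Chek2, the checkpoint kinase that phosphorylates p53, fell with a trend of -0.92 (SE 0.16, adjusted p = 0.00135), and the median trend was 0.00. In the lung Dyrk2, which phosphorylates p53, rose by 0.62 (SE 0.17, adjusted p = 0.0113) and Prkdc, the catalytic subunit of DNA-dependent protein kinase, by 0.43 (SE 0.11, adjusted p = 0.00577), with a median of -0.03. Without mouse 6 at 12 Gy 1 of the 8 passed in the lung. None of these 3 passed with the slide as a fixed term.

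Among 26 other regulators and cofactors of p53, 4 rose and 3 fell in the liver, with a median trend of 0.03, where 9.51% of all probes passed. In the lung 13 rose and 1 fell, with a median of 0.37, where 30.7% of all probes passed, and 8 of the 26 passed without mouse 16 at 12 Gy. Trim24, a ubiquitin ligase for p53, rose by 0.96 (SE 0.19) in the liver and 0.57 in the lung, and Usp2, a deubiquitinase of Mdm2, by 0.88 (SE 0.18) and 1.00 (SE 0.18). In the liver Trp53bp2, a p53-binding cofactor, rose by 0.65, and in the lung its relative Ppp1r13b rose by 0.57 while Rpl5, a ribosomal protein that binds Mdm2, fell by 0.95. With the slide as a fixed term 0 of this list passed in either organ, and 1 passed in the lung without the last slide.

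**Figure D5:**
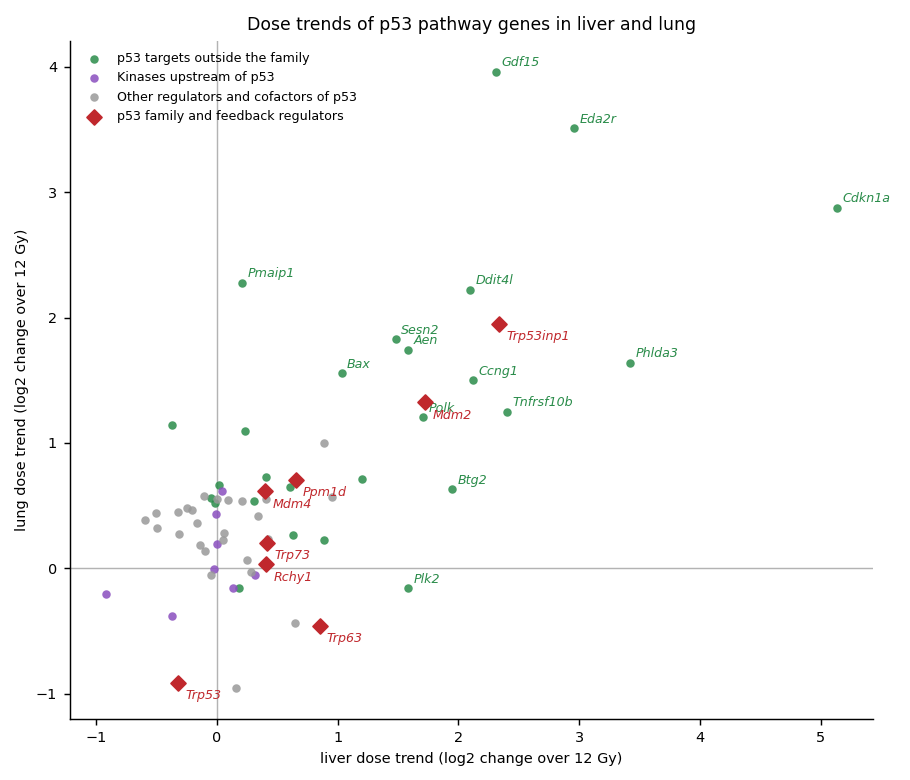
Log2 dose trend over 12 Gy in the liver (horizontal axis) against that in the lung (vertical axis), 1 point per gene, for the 8 family genes, 26 p53 targets, 8 upstream kinases and 26 other regulators. The targets extend to 5.13 in the liver and 3.96 in the lung, the kinases lie between -0.92 and 0.62, and Trp53 is the family gene with the lowest lung trend, at -0.91.

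The genes whose dose pattern was most like that of Mdm2 were sought over 16755 genes by the root mean square difference of their 10 dose effects, 5 in each organ. Nearest were Exoc4 at 0.18, Polk, a translesion DNA polymerase and one of the listed p53 targets, at 0.19 and Dyrk3 at 0.19, in log2 units. For Trp53inp1 the nearest were Ccng1, cyclin G1 and also a listed target, at 0.23, Tnfrsf10b, a death receptor and also listed, at 0.26 and Gm9949 at 0.30. These are likenesses over 36 arrays that share their control mice and slides.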

How the data were processed

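The 36 mRNA arrays are 1-colour Agilent mouse arrays, 18 of liver and 18 of lung, with 3 mice per dose in each. Liver and lung samples carry the same numbers, which the labels do not tie to one animal. The intensity values that the authors deposited are median spot and background intensities from Feature Extraction 11.5.1.1, not normalized and not on a log scale. The authors also deposited a table of linear intensity values for the series whose procedure and centring are not stated. Each array's 75th percentile lies between 1 and 1.01 and its median between 0.055 and 0.08 there, and these values served as an alternative.

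Background was corrected by limma 3.58.1 (normexp, offset 0) under R 4.3.3 with statmod 1.5.0. Control spots were left out, and outlier spots became missing values. Quantile normalization ran within an organ, and over all 36 arrays for organ differences, before log2 values of a probe's spots were averaged. A probe counted as well above background where at least 0.5 of its spots were, and was tested if this held on at least 1 array, which left 38362 probes in the liver, 43979 in the lung and 47376 over both, and 15 and 16 of the 17 member probes. Models had 6 dose groups or a linear dose term with empirical Bayes moderation, and Benjamini-Hochberg adjustment ran over all probes of a comparison. The scripts were tested on simulated data. The number of arrays, 3 per group, limits precision.

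Probes were named by RefSeq accession; 9009 probes with an Ensembl identifier were left unnamed, and where a probe lies in its transcript was not analysed here. The brightest probe over the 36 arrays stands for a gene, and other probes are described where they differ. From each of the lists of p53 targets, kinases and other regulators, the 3 genes with the largest trend among those that passed are named. The members, lists and alternatives were chosen with earlier results of these data known. Promoter windows are from RefSeq. Alternatives were other background correction, scaling, filters, averaging of probes, moderation and dose scale, the slide as a fixed or random block, the mouse number as a block, and leaving out each mouse.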

Additional observations from a re-analysis of the deposited data

Results flagged for a closer look

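The difference between the organs passed its own test for 5 results. The effect of 12 Gy on Trp53 was lower in the lung than in the liver, with a lung minus liver difference of -1.01 (SE 0.25, adjusted p = 0.0104). It passed under each of the 8 other settings tried for it apart from leaving out mice. Trp53 had only this named probe, so the setting that averages the probes of a gene could not change its values. Without mouse number 11 or 26 the Trp53 difference missed the threshold, with adjusted p of 0.0579 and 0.0506. For the brightest probe of Trp63 the same difference was -1.47 (SE 0.47, adjusted p = 0.0426). It missed the threshold in 13 of the 18 fits that left out 1 mouse number, each of the control and 12 Gy numbers among them, with values from -1.63 to -1.16 and adjusted p up to 0.174. Without mouse 25, whose liver stood far above the rest, it was -1.47 (SE 0.27, adjusted p = 0.000851). The difference of the dose trends of Trp63 was -1.32 (SE 0.44, adjusted p = 0.0324), ran from -1.57 to -1.03 over the 18 fits, and missed the threshold in 5 of them, without mouse 1, 11, 21, 22 or 6, with adjusted p up to 0.104.

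Both other differences concern probes that are not the brightest of their gene. The Trp73 probe A_52_P193555 had a difference of trends of 1.16 (SE 0.32, adjusted p = 0.0115), with the probe well above background on 0 of 18 liver arrays. The second Ppm1d probe had a difference of 0.81 (SE 0.19, adjusted p = 0.00351), whereas the brightest Ppm1d probe gave 0.16 (adjusted p = 0.594). All 12 Gy lung arrays were on the last slide, and slide and dose cannot be told apart for these differences.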

How the results depend on the processing

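Of the results on single probes, comparisons and lists under 14 settings and 18 left-out mice, 6148 values kept their direction and side of the threshold, 169 lost and 44 gained a call, 162 moved and 4 reversed. With the slide as a fixed term 1 member passed at 12 Gy in the liver (4 as reported), 1 in the liver trend (4) and 1 in the lung trend (6), and in the lung only 0 against 1 Gy can be fitted. With it as a random block 3 passed at 12 Gy in the lung (6), and without the last slide, a setting chosen after seeing the data, 3 in the lung trend (6). The difference of the 12 Gy effects passed for 1 member (2) with the processed signal scaled to the 75th percentile, with all non-control probes and with all probes of a gene averaged. Averaging left 3 members (6) different between unirradiated organs. The cause of these moves was not tested. Leaving out 1 mouse gave 3 to 4 members at 12 Gy in the liver, 4 to 5 in the liver trend, 6 to 6 at 12 Gy and in the trend in the lung, 0 to 0 liver and 0 to 1 lung steps, 0 to 2 for each organ difference and 6 to 7 for unirradiated organs. The reversals were Trp63 in the lung under averaging, 0.0619 at 12 Gy and 0.0581 for the trend (as reported -0.59 and -0.46), the Trp73 probe A_52_P193555 with the slide as a fixed term, -0.0435 (0.88), and Trp73 between unirradiated organs under averaging, 1.00 (-0.87). Scaling to the 75th percentile moved the all-probe median from 0.00 to 0.13 at 8 Gy in the liver, and the deposited series values moved that of the 12 Gy organ difference from 0.08 to -0.16. Deviations of liver and lung samples with the same mouse number correlated between -0.05 and 0.05 over 18 pairs, none over 0.1. The best partner within a dose had the same number in 6 of 18. With 3 mice per dose and the organs largely on different slides, these values cannot decide whether a number is the same animal. With the mouse number as a replicate block 1 member passed for the 12 Gy difference (2), since Trp63 had an adjusted p of 0.0932, and 1 for the difference of trends and 6 for unirradiated organs, as reported.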

Other observations

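Single arrays stood apart for dim probes of the family. The second Trp63 probe was at 7.04 in the liver of mouse 12 at 1 Gy, the only one of 18 liver arrays on which it was well above background, against 4.66 or lower on the other liver arrays. The Mdm4 probe A_55_P2617568 was at 3.35 in the lung of the same mouse number, against 6.10 or higher on the other lung arrays. The brightest Trp63 probe was at 9.61 in the liver of mouse 25 at 8 Gy, while the second Trp63 probe of that liver was at 4.44.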
